A study of Homo sapiens with 14 samples.

Results

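The regions described here are stretches of chromatin far from any gene start that were called for at least 1 NF-κB subunit and had about equal p50 and p52 reads. They come from ChIP-seq of L1236, a long-established line of Hodgkin lymphoma cells, in which p50, p52, RelA (also called p65) and RelB were each precipitated in 2 replicates and 6 input libraries were sequenced. The cells carried no treatment or genetic change according to the labels, so all values describe 1 untreated line. The 2 p52 replicates were made with different antibodies, a mouse monoclonal and a rabbit polyclonal, while p50, RelA and RelB were each precipitated with 1 antibody. A region was selected on its position and on its p50 and p52 reads: outside every annotated gene, more than 100 kb from the closest transcription start site (TSS) or with none within 1 Mb, and with a log2 ratio of p50 to p52 reads between -0.7 and 0.7. Of the 14865 union regions 878 met this rule, which is 5.91%. The deposited table gives reads, calls and fold enrichment as 1 value per subunit from merged replicates, so these have no replicate error. It holds separate replicate values only for a signal score of unstated scale. Intervals are 95% intervals over regions and cover counting error only.

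NF-κB proteins bind DNA as dimers. RelA and RelB carry transactivation domains, whereas p50 and p52, which are processed from the precursors p105 and p100, do not. The canonical pathway releases mainly p50-RelA and the non-canonical pathway p52-RelB, and Hodgkin lymphoma cells are known for constitutive activity of both. Sites far from promoters can act as enhancers, and which gene such a site serves cannot be read from distance alone.

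The label of a gene desert held for the TSS but less strictly for gene bodies. The median distance to the closest TSS was 191745 bp (interval 180316 to 202780, n = 841), the farthest region lay 1270470 bp away, and 37 regions had no TSS within 1 Mb. However, 22 regions lay within 10 kb of a gene and 98 within 50 kb. The regions nearest to the distance limit were 100194 and 100233 bp from a TSS on the inner side, and 99923 and 99895 bp on the outer side. At the upper ratio limit the nearest regions had 0.6999 and 0.6988 inside and 0.7039 and 0.7130 outside. At the lower limit 2 regions shared a value of -0.6995, and the next outside had -0.7009 and -0.7017. The 878 regions had a median width of 794 bp, and 468 different genes provided their closest TSS. There was little preference for a side, with 427 regions upstream and 414 downstream of that TSS, or 50.8% upstream (interval 47.4 to 54.1).

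p50 was called at 551 of the 878 regions (62.8%), against 73.8% of all union regions, and p52 at 642 (73.1%), against 73.3%. Both were called at 494 (56.3%), against 51.4%. These counts depend on the reads that chose the regions and are given as a description. RelB and RelA were not part of the rule. RelB was called at 375 regions, or 42.7% (39.5 to 46.0), against 26.8% of the union. RelA was called at 70, or 7.97% (6.36 to 9.95), against 3.31%. A linked departure concerned regions at which neither p50 nor p52 was called. These made up 179 of the 878 (20.4%) but 4.31% of the union. Only regions with at least 1 call are listed, so each of them had to be called for RelB or RelA. RelB was called at 177 of the 179, and these are among the 375 above. The most frequent combination was p50 with p52 at 324 regions, followed by RelB alone at 155, p50 with p52 and RelB at 140, p52 alone at 124 and p50 alone at 51. All 4 subunits were called at 28, or 3.19% (2.22 to 4.57), near the 2.35% of the union. The other combinations are given as counts only.

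A pair of region sets under the same limit on the p50 to p52 ratio served for comparison. The first held 1632 intergenic regions 10 to 100 kb from a TSS, the second 2237 regions inside genes and more than 10 kb from a TSS. RelB was called at 32.8% of the former and 28.7% of the latter, so that the gene-desert regions exceeded them by 9.93 percentage points (5.95 to 13.9) and 14.0 points (10.3 to 17.8). When fold enrichment had to reach 5, the former difference was 1.97 points (-1.79 to 5.81), and outside long stretches 2.48 points (-1.69 to 6.72). RelB was less frequent in the gene-desert regions skewed to p50 (35 of 319, interval 8.00 to 14.9%) and stood at 34.4% (30.6 to 38.4) in those skewed to p52. For RelA calls the balanced gene-desert regions exceeded the intergenic regions by 3.87 points (1.93 to 6.03). They exceeded the regions inside genes by 5.51 points (3.74 to 7.57). The RelA share itself was 3.82% without regions of high background and 1.82% when a fold enrichment of at least 5 was required. RelB without p50 and p52 was called at 20.2%, against 5.09% of the intergenic regions and 3.40% of those inside genes.

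The RelB calls were unevenly spread over the gene-desert regions. The log2 ratio of RelA to p52 reads, each divided by its sum over all union regions, fell into 2 groups: a broad one around zero and a narrow one between 2 and 3, with few regions between. At 1.5 or more lay 199 of the 878 gene-desert regions (22.7%). Of the gene-desert regions outside the limits of the p50 to p52 ratio, 61 of 319 skewed to p50 (19.1%) and 51 of 567 skewed to p52 (8.99%) did so too. The same held for 10.2% of all union regions, 4.29% of the intergenic and 2.06% of the intragenic comparison regions. From the latter 2 the gene-desert regions differed by 18.4 points (15.5 to 21.4) and 20.6 points (17.9 to 23.5). Of the 199 only 15 had a ratio under 2, and 21 gene-desert regions had ratios from 1 up to 1.5. The limit of 1.5 was chosen after these ratios had been seen, and the ratio shares its p52 reads with the rule that chose the regions. The 199 regions are called high-ratio regions below, a name for this ratio and not for RelA binding, since RelA was called at 57 of them and their median log2 ratio of RelB to p52 reads was 2.23.

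**Figure D1:**
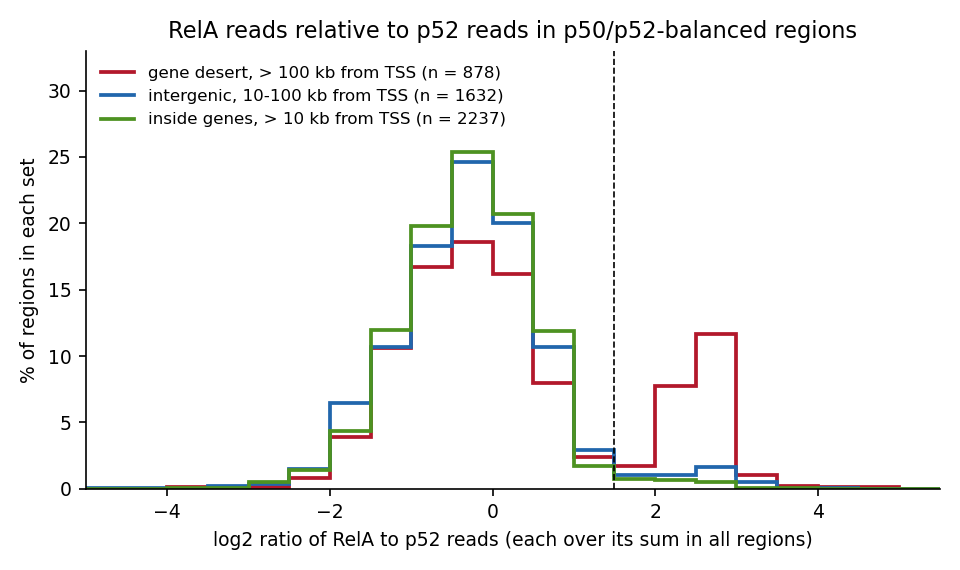
Share of regions (y axis, %) by the log2 ratio of RelA to p52 reads (x axis, bins of 0.5) for balanced regions in gene deserts (n = 878), in intergenic sequence 10 to 100 kb from a TSS (n = 1632) and inside genes (n = 2237); the dashed line marks 1.5. The second hump right of the line holds 22.7% of the gene-desert regions against 4.29% and 2.06% of the others.

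In the high-ratio regions the 4 precipitations gave read numbers of the same order. The medians were 55 reads for p50, 76 for p52, 77 for RelA and 79 for RelB. In the other 679 gene-desert regions the medians were 76 for p50, 89 for p52, 12 for RelA and 17 for RelB. The split was made on RelA and p52 reads, and the rule that chose the regions tied p50 reads to p52 reads. The contrasts of RelA with p52 and with p50 therefore restate the split. Only the RelB reads were part of neither, yet they were not free of selection. Of the 199 high-ratio regions 159 had neither p50 nor p52 called, so they were listed only through a RelB or RelA call. Their RelB reads are therefore a description too. RelB reads were 1.20 times the RelA reads in the median high-ratio region and 1.43 times in the median of the others. The high-ratio regions took 8.92% of all RelB reads in the table and 1.59% of the p50 reads.

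**Figure D2:**
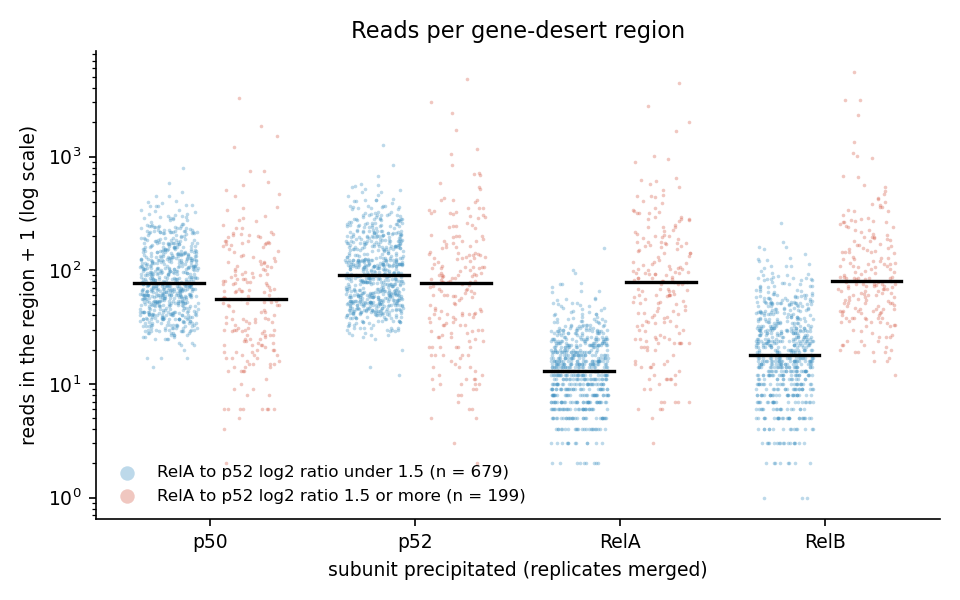
Reads in each of the 878 gene-desert regions (y axis, reads + 1, log scale) for the 4 subunits (x axis), with the 679 regions of RelA to p52 ratio under 1.5 beside the 199 of 1.5 or more; black lines are medians. The 4 clouds of the high-ratio regions lie at like heights, with medians of 55 to 79 reads, whereas in the others RelA and RelB lie far under p50 and p52.

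The high-ratio regions also differed in local background, which was estimated as the pileup at the summit divided by the fold enrichment given by MACS. For called RelB peaks it was 7.30 fragments in the median (6.68 to 8.05, n = 197), against 2.62 (2.54 to 2.84, n = 178) in the other gene-desert regions. For called p50 peaks it was 19.9 (n = 21) against 3.36 (n = 530), and for p52 19.1 (n = 37) against 3.08 (n = 605). All 40 gene-desert regions with a background above 5 times the median of a called subunit were high-ratio. Enrichment went the other way. The median fold enrichment of RelB was 5.29 (4.95 to 5.49) in the high-ratio and 9.77 (8.61 to 11.1) in the other regions, and that of p50 was 4.07 against 17.4. The p50 contrast follows in part from the split on RelA and p52 reads. Without regions of high background in any set, RelB was called at 40.1% of gene-desert regions. That exceeded the intergenic regions by 7.65 points (3.64 to 11.68) and those inside genes by 11.52 points (7.74 to 15.35). The part of this background in the calls was not tested further.

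Calls followed the same division. RelB was called at 197 of the 199 high-ratio regions (99.0%, against 26.8% of the union), RelA at 57 (28.6%, against 3.31%), p52 at 37 (18.6%, against 73.3%) and p50 at 21 (10.6%, against 73.8%). The RelA, p52 and p50 shares follow in part from the split on RelA and p52 reads, since the rule ties p50 to p52. These shares and the combinations below are a description. Since the table lists only regions with at least 1 call, a region with neither p50 nor p52 had to be called for RelB or RelA. Of the 155 regions with RelB alone 135 were high-ratio, as were all 22 with RelA and RelB only and all 13 with p52, RelA and RelB. In contrast, none of the 324 regions with p50 and p52 only and 1 of the 140 with p50, p52 and RelB were high-ratio. The 28 regions with all 4 subunits split into 17 and 11.

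Without the high-ratio regions in any of the sets, RelB was called at 26.2% of the gene-desert regions (178 of 679, interval 23.0 to 29.7). The corresponding values were 30.2% for the intergenic and 27.5% for the intragenic regions. The difference was then -3.94 points (-7.87 to 0.154) and -1.26 points (-4.96 to 2.63), so both signs had turned and both intervals included 0. RelB was called at 197 of the 199 gene-desert regions left out, a group chosen after the data were seen. Leaving out such regions had to lower the RelB share most in gene deserts, where they were most frequent. The turned signs are therefore a description and no test of the excess. The ratio that defined the regions left out holds the RelA and p52 reads, so the remaining shares of RelA calls (1.91%, against 3.14% and 2.05%) and of p50 with p52 (70.1%, against 71.3% and 71.6%) are a description only.

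**Figure D3:**
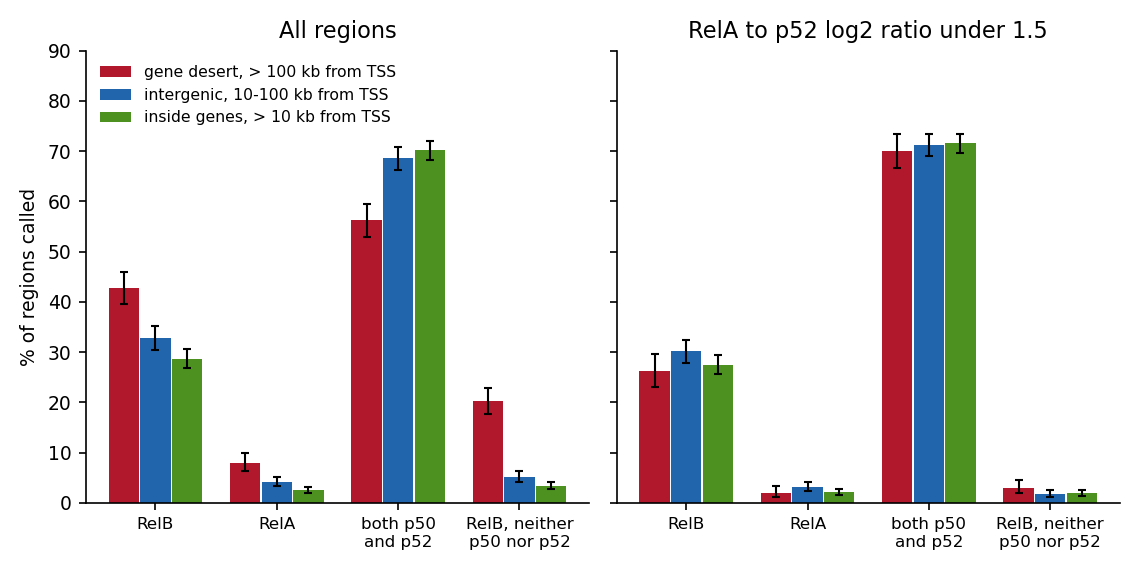
Share of regions called (y axis, %) for RelB, RelA, both p50 and p52, and RelB with neither p50 nor p52 (x axis) in the 3 sets of balanced regions, with 95% Wilson intervals; all regions on the left, those with a RelA to p52 log2 ratio under 1.5 on the right. RelB stands at 42.7%, 32.8% and 28.7% on the left and at 26.2%, 30.2% and 27.5% on the right.

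high-ratio regions were unevenly placed. Chromosome 16 held 32, chromosomes 10 and 4 held 24 each, chromosome Y 23 and chromosome 2 21. On chromosome Y they were all 23 gene-desert regions, and on chromosome 16 they were 32 of 47. On chromosomes 13 and 20, which had 29 and 12 gene-desert regions, there were none. The longest interval of each chromosome without any union region was taken as a landmark that the table itself provides. Within 1 Mb of its edges lay 59 of the 199 high-ratio regions (29.6%, interval 23.7 to 36.3), 10 of the other 679 (1.47%) and 2.05% of all union regions. Chromosome 16 contributed 17 of these 59 and chromosome Y 16. As background, on several chromosomes of hg18 this longest interval contains the unsequenced centromere, next to which repeated sequence is common. Repeat content and copy number were not tested.

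Part of the gene-desert regions sat in runs. With gaps under 50 kb between them, 431 regions stood alone, 87 pairs were formed, and 19 long stretches of 5 or more held 167 regions (19.0%). Grouped among themselves in the same way, 7.11% of the intergenic and 7.51% of the intragenic regions lay in long stretches, and 29.1% of all union regions, which are far more numerous. Of the 19 long stretches 12 consisted mostly of high-ratio regions and the other 7 contained none. The 12 together held 118 regions and the 7 held 49.

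The runs with the most regions were of the high-ratio kind. On chromosome 10, hg18 41675961 to 41728947, 16 regions covered 53.0 kb; RelB was called at all 16, p52 at 4, RelA at 4 and p50 at 1, and the median reads were 187 for p50, 309 for p52, 287.5 for RelA and 255 for RelB. A further 16 lay on chromosome 4 from 48787931 to 48851906, with RelB called at all 16, p52 at 1 and p50 and RelA at none. Their median reads were 100.5, 117.5, 116.5 and 150.5 in the order p50, p52, RelA and RelB. On chromosome 16 from 44943251 to 44990439 there were 15 regions, with RelB called at 14, RelA at 10, p52 at 6 and p50 at 1. In none of these 3 stretches did a p50 or p52 peak exceed a fold enrichment of 4.23.

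The 7 long stretches without high-ratio regions had lower RelA relative to p52 reads, which restates the split. The call counts of each run, here and above, are a description. Over the union p52 was called at 73.3%, p50 at 73.8%, RelB at 26.8% and RelA at 3.31%. Single runs hold too few regions to compare with these shares. Downstream of GATA3, a transcription factor of lymphoid and T helper cell development, 8 regions lay on chromosome 10 from 8397436 to 8543006, between 260763 and 405873 bp from its TSS. p52 was called at all 8, p50 at 6, RelB at 3 and RelA at none. Their p52 reads ran from 52 to 198 and their RelA reads from 3 to 23. The region at 8447839 to 8449121 carried the strongest RelB peak of the run, with a fold enrichment of 21.0 beside 25.2 for p50 and 23.5 for p52, from 60 RelB, 142 p50 and 164 p52 reads. The highest p52 value, 39.2, was found at 8406981 to 8408964 together with p50 at 23.1 and without a RelB call. Just outside the rule, at 8418436 to 8419379, a p52-called region of the same run had a p50 to p52 log2 ratio of -0.7017.

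Upstream of ATP5G3, which encodes a subunit of the mitochondrial ATP synthase, 8 regions were packed into 41.4 kb of chromosome 2, from 175925283 to 175966634. p52 was called at 7, p50 at 5, RelB at 1 and RelA at none. The strongest, at 175946593 to 175948025, had fold enrichments of 36.0 for p52, 16.3 for p50 and 10.8 for RelB, with 177 p52, 105 p50, 48 RelB and 31 RelA reads. At ETS1, a transcription factor of lymphocytes, 7 regions lay 151617 to 281737 bp downstream. p52 was called at 6 of them and p50 at 2, with both at 1, and neither RelA nor RelB was called. Upstream of PITX1, a homeodomain factor, 2 regions 159123 and 160677 bp away belonged to a run of 8 in which p52 was called at all 8, p50 at 6 and RelB at 2.

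**Figure D4:**
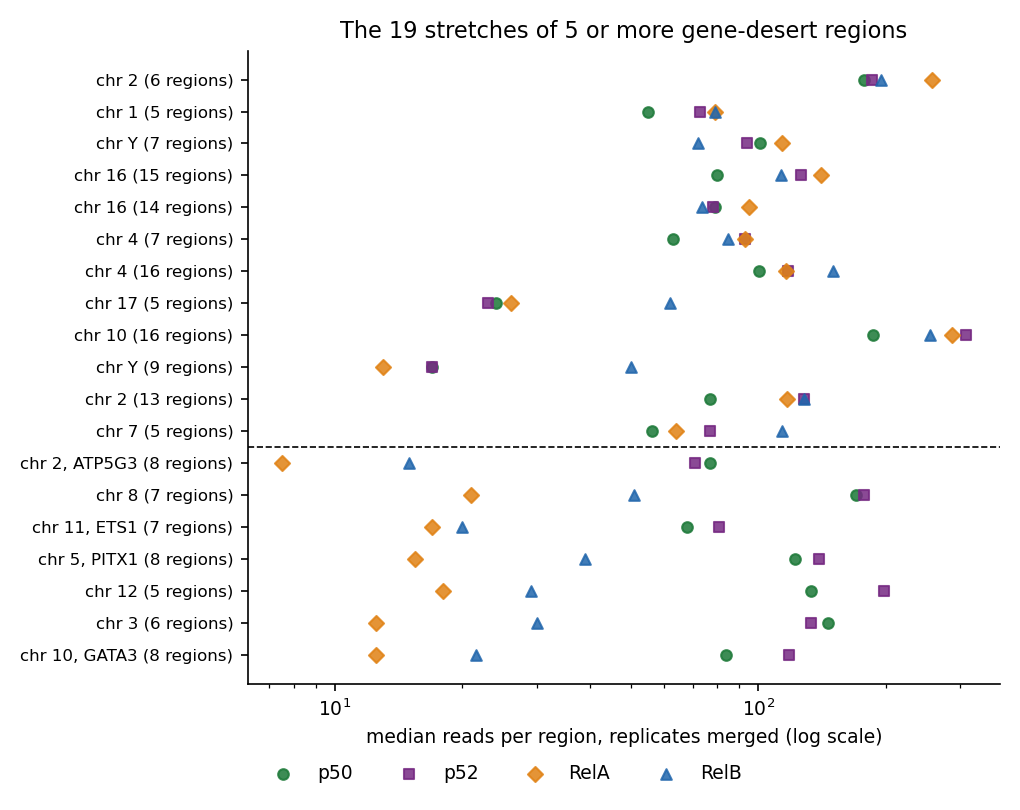
Median reads per region (x axis, log scale) of p50, p52, RelA and RelB in the 19 stretches of 5 or more gene-desert regions, ordered by their median RelA to p52 ratio (y axis, chromosome, closest named gene and number of regions). Above the dashed line are the 12 stretches of mostly high-ratio regions, where RelA medians lie near those of p50 and p52, with RelB higher in a few such as the 9 regions on chromosome Y (50 against 13 to 17); under it are the 7 without any, where RelA medians are 7.5 to 21 reads and p50 and p52 lie far to the right.

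The strongest p50 and p52 peaks were not high-ratio, which the split on RelA and p52 reads favours. On chromosome 12, 130494692 to 130496555, the fold enrichment reached 82.1 for p50 and 100.1 for p52, the highest of both among the 878, with 15.8 for RelB. The reads there were 370 for p50, 517 for p52, 37 for RelA and 84 for RelB. The second of both lay on chromosome 18, 34774332 to 34775749, where all 4 subunits were called, with a p50 enrichment of 68.1, p52 of 78.4, RelB of 22.1 and RelA of 9.04. The next p52 peak, 73.2, was found 303199 bp upstream of ATP2B1, a calcium pump of the plasma membrane, with p50 at 54.5 and RelB at 32.9. By contrast, on chromosome 11, 8362254 to 8363135, fold enrichments of 65.4 for p50 and 61.4 for p52 went with only 8 RelB and 2 RelA reads. On chromosome 4, 183964212 to 183965409, p50 exceeded p52 in enrichment, with 67.1 against 51.1, and neither RelA nor RelB was called.

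Median strength did not set gene deserts apart for p50 and p52. Called p50 peaks had a median fold enrichment of 17.0 (16.2 to 17.9, n = 551), against 17.6 (16.9 to 18.5, n = 1239) in the intergenic comparison regions and 17.3 (n = 1717) inside genes. For p52 the values were 16.7 (15.6 to 17.9, n = 642), 17.4 (n = 1426) and 17.3 (n = 2013). RelB peaks were lower in gene deserts, at 6.55 (6.21 to 7.00, n = 375), than in the comparison regions, at 9.33 (8.80 to 9.96, n = 535) and 9.82 (9.17 to 10.3, n = 642). Without the high-ratio regions they stood at 9.77 (8.61 to 11.1), 10.0 (9.49 to 10.7) and 10.1 (9.55 to 10.6), whose intervals overlap. The direction of the RelB difference also depended on the measure, since the median pileup was 31 (29 to 33) in gene deserts against 30 (28 to 31) in the intergenic regions, and the first replicate signal value 230.6 (208 to 265) against 167 (154 to 183). The second replicate signal value went the other way, at 260.5 (230.1 to 293) against 325 (292 to 374).

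Where p50 and p52 were both called their summits nearly coincided, with a median distance of 8 bp (7 to 10, n = 494), and 473 of the 494 pairs (95.7%) lay within 250 bp. In the comparison regions the medians were 11 bp (10 to 12, n = 1119) and 10 bp (9 to 11, n = 1572). RelB summits lay 13 bp (10 to 17, n = 174) from p50 and 13.5 bp (10 to 17, n = 192) from p52. In the high-ratio regions 29 of 37 pairs of RelB and p52 summits (78.4%) were within 250 bp, against 149 of 155 (96.1%) in the others.

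All 4 subunits were called at 28 regions, or 3.19%, near the 2.35% of the union. The 11 that were not high-ratio had fold enrichments between 12.0 and 68.1 in p50, 14.3 and 78.4 in p52, 4.41 and 9.04 in RelA, and 6.72 and 37.8 in RelB. Among the 17 high-ratio ones p50 ranged from 3.15 to 6.47, p52 from 3.09 to 5.41, RelA from 3.02 to 7.54 and RelB from 5.93 to 12.2. The p50 and p52 ranges of the 2 groups did not overlap. This follows in part from the split on RelA and p52 reads, since the rule ties p50 to p52, and is a description. The highest RelB enrichment of all gene-desert regions, 37.8, was on chromosome 7, 156979802 to 156982118, with 47.1 for p50, 57.8 for p52 and 6.15 for RelA and reads of 175, 302, 490 and 54. Of the regions called for all 4, the next were chromosome 18, 11139158 to 11140877, and chromosome 12, 4132549 to 4133653, each at 27.4 for RelB. A pair on chromosome 2, at 7830496 to 7831978 and 7882984 to 7883846, was called for all 4 although the closest TSS was 855522 and 852580 bp away. Their RelB enrichments were 19.8 and 19.5, and their RelA enrichments 7.15 and 4.63. ARRDC3, an arrestin-like adaptor gene, had 1 such region, 102163 bp downstream, with 7.08 for RelA and 13.6 for RelB.

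The most RelB and RelA reads per kb, in contrast, were all found in high-ratio regions. On chromosome 1, 121185486 to 121187111, there were 3169 RelB, 2007 RelA, 2423 p52 and 1502 p50 reads. The region on chromosome 6, 58884033 to 58887415, had 5543, 4410, 4821 and 3246 in the same order. For RelB the fold enrichment was 12.2 and 10.8, and for p50, p52 and RelA it stayed between 4.05 and 4.97. The widest region of all, 8787 bp on chromosome 19, 32423545 to 32432331, belonged to them too.

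RelB with neither p50 nor p52 remained at 20 regions that were not high-ratio. The strongest of these, on chromosome 6, 44779961 to 44780402, had a RelB enrichment of 17.0 from 64 reads, but its RelA to p52 ratio of 1.37 was near the limit and its replicate signal values for RelB were 1369 and 99.3. On chromosome 7, 41211647 to 41212073, RelB was enriched 11.1-fold from 24 reads beside 26 p50, 38 p52 and 4 RelA reads. A missing p50 or p52 call does not show that the subunit was absent.

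RelB calls varied with distance from the TSS, though not in a steady course. They were made at 40.0% of the 445 regions at 100 to 200 kb, 30.6% of 170 at 200 to 300 kb, 57.1% of 154 at 300 to 500 kb, 51.4% of 72 beyond 500 kb and 54.1% of the 37 without a TSS. high-ratio regions made up 17.1%, 12.9%, 37.7%, 34.7% and 48.6% of these classes. RelB was called at 197 of the 199 high-ratio regions, so leaving them out had to lower the RelB shares. These were then 27.9%, 20.9%, 31.2%, 25.5% and 10.5%, and the intervals of neighbouring classes overlapped. The 3 most distant regions with a TSS were called for p50 and p52, for p50, p52 and RelB, and for RelB alone.

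**Figure D5:**
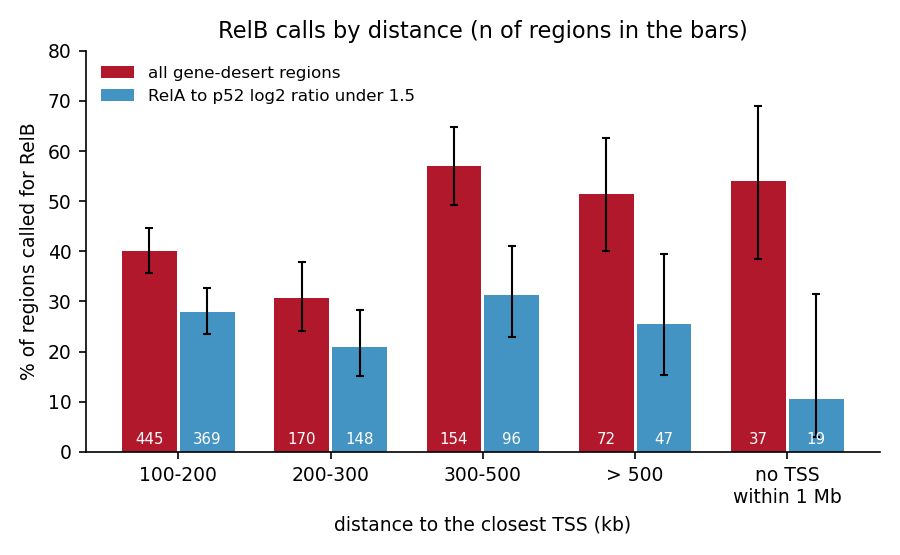
Share of gene-desert regions called for RelB (y axis, %) by distance to the closest TSS (x axis, kb), for all regions and for those with a RelA to p52 log2 ratio under 1.5, with 95% Wilson intervals and the number of regions inside each bar. The rise from 30.6% at 200 to 300 kb to 57.1% at 300 to 500 kb is reduced to 20.9% and 31.2% in the second series.

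Gene symbols could be given to 72 of the 468 closest-TSS genes, covering 143 regions, and most of these symbols begin with the letters A to C. A share of regions at genes of a pathway is therefore void (15.4% of the genes named), and the genes below are examples among those with a symbol. Closest means position only. The 2 genes with the most regions, ENSG00000109182 with 25 and ENSG00000215146 with 21, had no symbol. In the NF-κB pathway 3 regions were assigned to 2 genes. TNFAIP3, which encodes the inhibitory enzyme A20, had 2 upstream regions. The one 159025 bp away had 174 p50, 151 p52, 17 RelA and 14 RelB reads, with fold enrichments of 49.0 for p50 and 40.9 for p52. The one 131205 bp away was called for p50 only, at 10.8. NFKB1, the gene of p105 and p50 itself, had 1 region 117205 bp downstream, called for p52 at 10.6. Neither RelB nor RelA was called at these 3, beside shares of 26.8% and 3.31% in the union, and 3 regions are too few to compare with them.

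JUN, an AP-1 subunit, had 2 strong upstream regions. At 228688 bp the reads were 288 for p50, 358 for p52, 20 for RelA and 59 for RelB, and the fold enrichments 56.7 for p50, 64.3 for p52 and 14.3 for RelB. At 223242 bp they were 31.5 and 34.7 without a RelB call. CXCR4, the receptor of the chemokine CXCL12, had 3 upstream regions, all called for p50 and p52. The nearest, 163102 bp away, reached 34.0 for p50, 57.1 for p52 and 15.9 for RelB, from 233, 413 and 104 reads, while the other 2 had p52 values of 8.43 and 14.4 and no RelB call. With 1 region at TGFB2, which encodes a growth factor of the TGF-β family, called for p52 at 9.92, the cytokine and receptor list had 4 regions and 1 RelB call. RelB was called at 42.7% of all gene-desert regions and 26.8% of the union, and 4 regions are too few to compare.

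Among lymphoid transcription factors, BCL11A had 5 downstream regions from 106256 to 577551 bp, 4 of them called for p50 and p52 and 1 for p50 only. The highest had fold enrichments of 24.6 for p50 and 35.3 for p52. BACH2 and LEF1 had 1 region each, called for p50 and p52 and for p50 only. The region at RUNX1 was called for p52 and RelB at 14.3 and 4.99. With the 8 at GATA3 and 7 at ETS1 this list had 23 regions, of which RelB was called at 4 and none was high-ratio. These counts cover only genes with a symbol, and most of the 23 lie in the runs at GATA3 and ETS1. RelB was called at 42.7% of all gene-desert regions and 26.8% of the union. High-ratio regions made up 22.7% and 10.2% of these. The 23 regions are too few to compare with such shares. BCL2, which encodes an inhibitor of apoptosis, had 1 region 211557 bp away with 15.05 for p50 and 16.6 for p52. At FOXP2, a forkhead factor, 1 region had 39.2 for p50, 31.0 for p52 and 15.5 for RelB. The list of developmental factors, which shares GATA3 and its RelB calls with the lymphoid one, held 13 regions at 5 genes with 5 RelB calls. The RelB share was 42.7% over all gene-desert regions and 26.8% over the union, and 13 regions are too few to compare. In this list BHLHE40, a basic helix-loop-helix repressor, had a p52 peak of 7.07 and NR4A3, an orphan nuclear receptor, a p50 peak of 9.24. The neural adhesion list had 1 region, called for p52 at 10.4, downstream of SLITRK6. PTPRC, which encodes the leukocyte surface phosphatase CD45, had 4 downstream regions. 3 were called for p50 and p52, 1 of these also for RelB at 13.1, and the fourth was called for RelB alone with 18 RelB, 10 RelA, 8 p52 and 5 p50 reads and was high-ratio.

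Gene-desert regions had fewer close neighbours than the comparison regions, which the position rule favours. No region at a TSS can lie within 50 kb of them, whereas the comparison regions start at 10 kb from a TSS. Another union region lay within 50 kb of 66.5% of them (63.3 to 69.6), against 77.3% of the intergenic and 74.9% of the intragenic regions. Without the high-ratio gene-desert regions the value was 61.1%, but the 2 comparison values still include theirs. The median log2 ratio of RelB to p52 reads was -0.19 (-0.27 to -0.08) in gene deserts, against -0.31 (-0.36 to -0.26) and -0.36 (-0.40 to -0.31), and was 2.23 in the high-ratio and -0.48 in the other gene-desert regions. The replicate signal values behind the RelB calls had a Spearman correlation of 0.752 across the 197 high-ratio regions and 0.346 across the other 178. For RelA it was 0.581 (n = 57) and -0.044 (n = 13) in the same order. The order was reversed for p50, at 0.565 (n = 21) and 0.757 (n = 530), and for p52, at 0.422 (n = 37) and 0.803 (n = 605). These values are a description because regions share libraries.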

How the data were processed

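Using Bowtie the authors mapped reads uniquely to hg18. They discarded duplicates with SAMtools and drew libraries down at random to 10000000 reads. They called peaks with MACS, assessed the 2 replicates by IDR and merged them for the final calls, with thresholds of 0.05. The p52 replicates were made with different antibodies. Tool versions are not given in the sources used here. The deposited read counts are whole reads per union region from merged replicates, and whether they precede the reduction is not stated. Fold enrichment, as deposited, is MACS's ratio at the summit over the local background. The deposited pileup is a coverage signal at the summit. The deposited signal value is a score per replicate of unnamed scale, with no statement of which replicate it belongs to. The deposited IDR and FDR serve as p-value type measures, and no IDR in the table exceeds 0.01. Distances are the authors', from Ensembl version 54. Negative distances were upstream for all 37 regions checked at 13 genes.

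From these values log2 ratios of reads were computed after adding 1 read. Shares have Wilson intervals, differences of shares Newcombe intervals, and medians intervals from order statistics, all at 95%. Their coverage was tested on simulated independent values only, which lack the runs of the real regions. Input libraries enter only through the authors' fold enrichment. Since the authors merged the 2 libraries of each subunit for reads, calls and fold enrichment, no test between samples was made, and regions are not replicates. Regions named are the 10 with the highest RelB enrichment of those called for all 4 subunits, the extremes of reads per kb, enrichment, distance and width, those next to the limits, the largest stretches, the genes with most regions and members of 8 gene lists, of which 1 region is not reported here. The gene-desert regions and the lists were chosen with earlier results of these data known. Symbols came from the study's supplementary tables by Ensembl identifier, and none of the identifiers matched the RefSeq list. No motif was searched, since no hg18 sequence was used here. The tables were computed in Python 3.11.15 with pandas 2.3.3, numpy 2.4.6 and scipy 1.17.1, and drawn with matplotlib 3.10.9.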

Additional observations from a re-analysis of the deposited data

How the results depend on the processing

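Values come from merged replicates, so leaving out a replicate was not possible. No paired analysis was possible because the results come from no test over samples. Motif alternatives were not run without hg18 sequence, and gene-list alternatives not for lack of symbols. Leaving out high-ratio or long-stretch regions, an IDR under 0.001 and members-only neighbours were chosen after seeing the data. The excess of RelB calls over the intergenic and intragenic regions turned sign without high-ratio regions, to -3.939 and -1.261 points, and likewise with the high-ratio limit at 1 (-4.825 and -1.91) or 2 (-2.906 and -0.05608). The excess was 1.971 and 4.894 with a fold enrichment of at least 5 and 2.475 and 6.131 without long stretches, where the intervals against intergenic regions included 0 (-1.795 to 5.81 and -1.687 to 6.724), and against intragenic regions 8.117 with an IDR under 0.001. It stayed inside its main intervals without high background (7.646 and 11.52) and at distance limits of 50 kb (6.088 and 10.31) and 200 kb (12.71 and 16.8). The same held at ratio limits of 0.5 (9.573 and 14.08) and 1 (9.871 and 12.48).

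The RelB share was 39.01% at a distance limit of 50 kb, 32.12% at fold enrichment of 5 or more, 34.6% without long stretches, 22.78% with IDR under 0.001, and 26.22%, 25.23% and 27.81% without high-ratio regions at limits of 1.5, 1 and 2. The RelA share was 1.822% at fold enrichment of 5 or more, 3.819% without high background, 4.36% without long stretches, 6.15% with IDR under 0.001, and 1.915%, 1.672% and 1.873% at the same 3 limits. Both p50 and p52 were called at 51.5% at 200 kb, 59.87% and 52.77% at ratio limits of 0.5 and 1, 64.14% without long stretches, 41.8% with IDR under 0.001, and 70.1%, 71.28% and 68.73% at the 3 limits. The number of regions was 1374 at 50 kb and 433 at 200 kb, with 55.35% and 45.71% upstream.

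The median RelB to p52 log2 ratio turned sign when centred on regions called for both (0.1241) or with 5 reads added (0.03111), and was -0.3691 without long stretches and -0.4828 without high-ratio regions. The log2 ratio of RelB strength to the intergenic regions, -0.51 for fold enrichment, turned to 0.04731 for pileup and 0.4642 for the first signal value, and was -0.3211 for the second and -0.04015 without high-ratio regions. Neighbours were found for 53.99% within 20 kb, 76.54% within 100 kb, 50.91% with members only, 61.12% without high-ratio regions and 58.65% without long stretches. The cause was not tested beyond these alternatives. The p50 and p52 strength ratios and the summit distance moved by less than their intervals under every alternative run for them.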
